A study of Mus musculus with 8 samples.

Results

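Immediate early and heat shock genes are 10 genes whose RNA responds within a short time to stimulation or stress of a tissue: Fos, Fosb, Jun, Junb, Egr1, Atf3, Ier2, Hspa1a, Hspa1b and Dnajb1. They were taken by symbol and matched to the Entrez gene IDs of the count table. All 10 were among its 27179 genes, and all 10 were among the 15086 genes that passed the filter on low counts and were tested. The hearts were taken from mouse embryos at E10.5, as 3 whole hearts that had lost both alleles of Kat6a, also called Moz (Kat6a-/-, labelled MOZ KO), and 5 wild-type hearts (Kat6a+/+, labelled MOZ WT). No treatment is given for either genotype. The sources used here do not give the litter, the time between dissection and lysis, or how the hearts were kept, so a difference in handling between the groups cannot be told apart from genotype.

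Immediate early genes are transcribed without new protein synthesis. Kinase cascades reach transcription factors that already sit on or near their promoters, such as serum response factor with its ETS partners and CREB, and the RNA made is short-lived. Most of their products are transcription factors themselves, with Fos and Jun proteins joining as the AP-1 dimer. The inducible heat shock genes are driven by heat shock factor 1 when unfolded protein accumulates. In dissected tissue both groups are widely read as a sign of handling, because they rise while a sample waits or is warmed or torn.

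Libraries held 19911803 to 34539787 counts, and TMM scaling factors lay between 0.989 and 1.01. RNA levels are given as CPM, counts scaled to library size. The targeted gene, Kat6a, a histone acetyltransferase, stood at 133 to 141 CPM in MOZ KO hearts and 138 to 156 CPM in MOZ WT hearts, and since these counts cover the whole gene they give no check of the genotype labels. Xist, the RNA of the inactive X chromosome, was present in MOZ WT replicates 4 and 5 (307 and 301 CPM) and near 0 elsewhere (up to 0.372 CPM), while Ddx3y of the Y chromosome was present in the other 6 hearts, the 3 MOZ KO hearts among them. Summed cardiomyocyte markers came to 38700 to 41830 CPM in MOZ KO and 35880 to 38610 CPM in MOZ WT hearts. Among markers of other tissue, those of liver and gut summed to 1.93 to 15.2 CPM in MOZ KO, with the highest value in replicate 3, and to 0.981 to 2.06 CPM in MOZ WT hearts. In bulk RNA, a change in the number of cells of a type and a change in RNA per cell cannot be told apart.

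The 10 genes lie on 7 chromosomes and overlap no other annotated gene in the RefSeq table. In 5 of them (Jun, Junb, Ier2, Hspa1a and Hspa1b) the counted length equals the whole span, so that the gene has no intron. Among 13817 protein-coding genes tested, 1.94% are built so. Hspa1a and Hspa1b, which encode the inducible HSP70 chaperone, lie 10120 bases apart on chromosome 17. Sequence from the RefSeq promoter table of GRCm38.p6 was read for 8 of the 10 genes. None was held there for Ier2, and Egr1 was left out by choice. The 250 bases before an annotated start of 4 early genes that were highest in MOZ KO replicate 1 are shown first, 5′ to 3′ on the strand of the gene. Capitals mark matches on either strand to TGACG (the half-site of the cyclic AMP response element), the TATA box TATAAA, the CCAAT box, or the paired heat shock unit GAANNTTC.
Fos (chr12:85473640-85473889, plus strand): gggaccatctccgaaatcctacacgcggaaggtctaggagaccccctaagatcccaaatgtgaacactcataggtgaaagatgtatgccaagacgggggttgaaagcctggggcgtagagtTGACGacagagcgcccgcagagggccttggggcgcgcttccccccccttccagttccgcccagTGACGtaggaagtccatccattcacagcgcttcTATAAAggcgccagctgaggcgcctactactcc
Fosb (chr7:19310046-19310295, minus strand): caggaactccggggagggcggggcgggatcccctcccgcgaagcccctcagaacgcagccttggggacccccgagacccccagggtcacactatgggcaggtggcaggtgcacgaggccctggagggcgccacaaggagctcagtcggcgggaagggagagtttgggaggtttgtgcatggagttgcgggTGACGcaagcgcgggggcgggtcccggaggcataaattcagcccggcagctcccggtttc
Jun (chr4:95052223-95052472, minus strand): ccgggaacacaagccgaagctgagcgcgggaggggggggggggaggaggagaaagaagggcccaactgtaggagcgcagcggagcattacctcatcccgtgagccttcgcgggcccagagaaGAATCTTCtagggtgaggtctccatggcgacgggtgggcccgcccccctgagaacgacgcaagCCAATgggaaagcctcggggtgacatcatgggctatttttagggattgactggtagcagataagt
Atf3 (chr1:191183334-191183583, minus strand): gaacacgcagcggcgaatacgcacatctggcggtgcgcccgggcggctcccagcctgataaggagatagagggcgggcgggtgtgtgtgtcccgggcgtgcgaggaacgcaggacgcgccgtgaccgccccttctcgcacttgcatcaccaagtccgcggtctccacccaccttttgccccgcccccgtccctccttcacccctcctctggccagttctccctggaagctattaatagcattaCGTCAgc

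Fos has 2 matches to TGACG, Fosb and Atf3 have 1 each, and Jun has none. TGACG is found in 17.8% of the 32851 promoter windows of this length, TATAAA in 12.4%, CCAAT in 33.8% and GAANNTTC in 6.69%. TTCNNGAA, the AP-1 site TGACTCA and the CArG box of serum response factor were searched too. They have no match in the first window of any of the 8 genes, and are found in 7.17%, 4.46% and 1.47% of all windows. Sites outside these 250 bases were not searched, so a lack of matches does not show that a gene lacks the site. Egr1 and Ier2 are not among the 8.

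The promoters of Hspa1a and Hspa1b are shown together because their likeness bears on how far their counts can be separated. Here capitals mark the bases that differ.
Hspa1a (chr17:34972157-34972406, minus strand): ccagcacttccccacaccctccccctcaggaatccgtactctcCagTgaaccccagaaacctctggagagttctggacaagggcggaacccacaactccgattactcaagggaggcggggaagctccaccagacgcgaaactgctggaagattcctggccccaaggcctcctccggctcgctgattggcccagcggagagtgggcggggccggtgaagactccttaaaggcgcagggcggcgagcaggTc
Hspa1b (chr17:34959239-34959488, minus strand): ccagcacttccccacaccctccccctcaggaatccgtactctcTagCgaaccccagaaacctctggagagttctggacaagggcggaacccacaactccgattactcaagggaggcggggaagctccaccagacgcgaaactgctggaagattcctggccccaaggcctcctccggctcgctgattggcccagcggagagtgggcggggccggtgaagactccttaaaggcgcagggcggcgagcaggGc

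They differ at 3 of 250 bases (98.8% identical). Each holds 1 GAANNTTC unit, 97 bases before the start. Of the 100-base stretches of the annotated transcripts, 47.1% of those of Hspa1a and 49.9% of those of Hspa1b occur unchanged in the other. The sources used here do not give how the counting treated reads that fit both genes, so the split between them is uncertain, and their sum is given beside them.

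Per length, in CPM per kilobase of counted gene length (RPKM), Jun was the most abundant of the 10 genes in MOZ WT hearts and Fosb the least. In MOZ WT hearts (mean ± SD, n = 5) the level of Jun was 38.2 ± 4.30 RPKM, of Ier2 32.9 ± 3.70, of Dnajb1 25.1 ± 1.72 and of Atf3 6.79 ± 0.935 RPKM. Junb stood at 4.39 ± 0.525, Egr1 at 4.32 ± 0.507 and Fos at 3.30 ± 0.420 RPKM, and Hspa1b, Hspa1a and Fosb at 1.48 ± 0.397, 0.617 ± 0.137 and 0.219 ± 0.0885 RPKM. The ranges of neighbours overlapped for Jun and Ier2, for Junb and Egr1, and for Egr1 and Fos, and did not for the other neighbours in this order. Among all genes tested, Jun was at percentile 85.7 of the MOZ WT level, Fos at 31.0 and Fosb at 4.09.

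None of the 10 genes passed the comparison of MOZ KO with MOZ WT hearts. A single heart, MOZ KO replicate 1, held the highest value of 7 of them, where it held that of 12.8% of all genes tested. In that heart Fos, Fosb, Jun, Egr1, Atf3, Ier2 and Hspa1a lay above every MOZ WT value, Junb and Hspa1b lay within the MOZ WT range and Dnajb1 lay below it. In MOZ KO replicates 2 and 3, 9 of 10 genes each lay within the MOZ WT range, with Fos below it in replicate 2 and Junb below it in replicate 3. A wild-type heart, MOZ WT replicate 2, came second for Fos, Fosb, Jun, Egr1, Atf3 and Hspa1a and first for Junb. The median log2 fold change of MOZ KO over MOZ WT was 0.37 over the 10 genes, with 8 above 0, against -0.0001 over all genes tested, of which 49.9% were above 0. Without MOZ KO replicate 1 the median was -0.01 and 4 of 10 were above 0. By edgeR's quasi-likelihood test with Benjamini-Hochberg adjustment, 0 of 10 passed an adjusted p of 0.05, where 2.67% of all genes did (1.44% higher and 1.23% lower in MOZ KO hearts). Adjusted p ran from 0.400 for Jun to 0.925 for Ier2. DESeq2 and limma voom also passed 0 of 10 after adjustment. At an unadjusted p under 0.05 there were 0 of 10 by edgeR, where 14.2% of all genes were. By DESeq2 and by limma voom there were 3 of 10 each (Jun, Egr1 and Atf3), where 13.9% of all genes were by DESeq2 and 15.2% by limma voom. The values of the groups overlapped for all 10 genes, while they did not overlap for 9.59% of all genes tested (MOZ KO above in 4.77%, below in 4.81%). The hearts were numbered in the sample descriptions with all MOZ KO hearts ahead of the MOZ WT hearts, and the sources used here do not give what that order stands for.

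**Figure D1:**
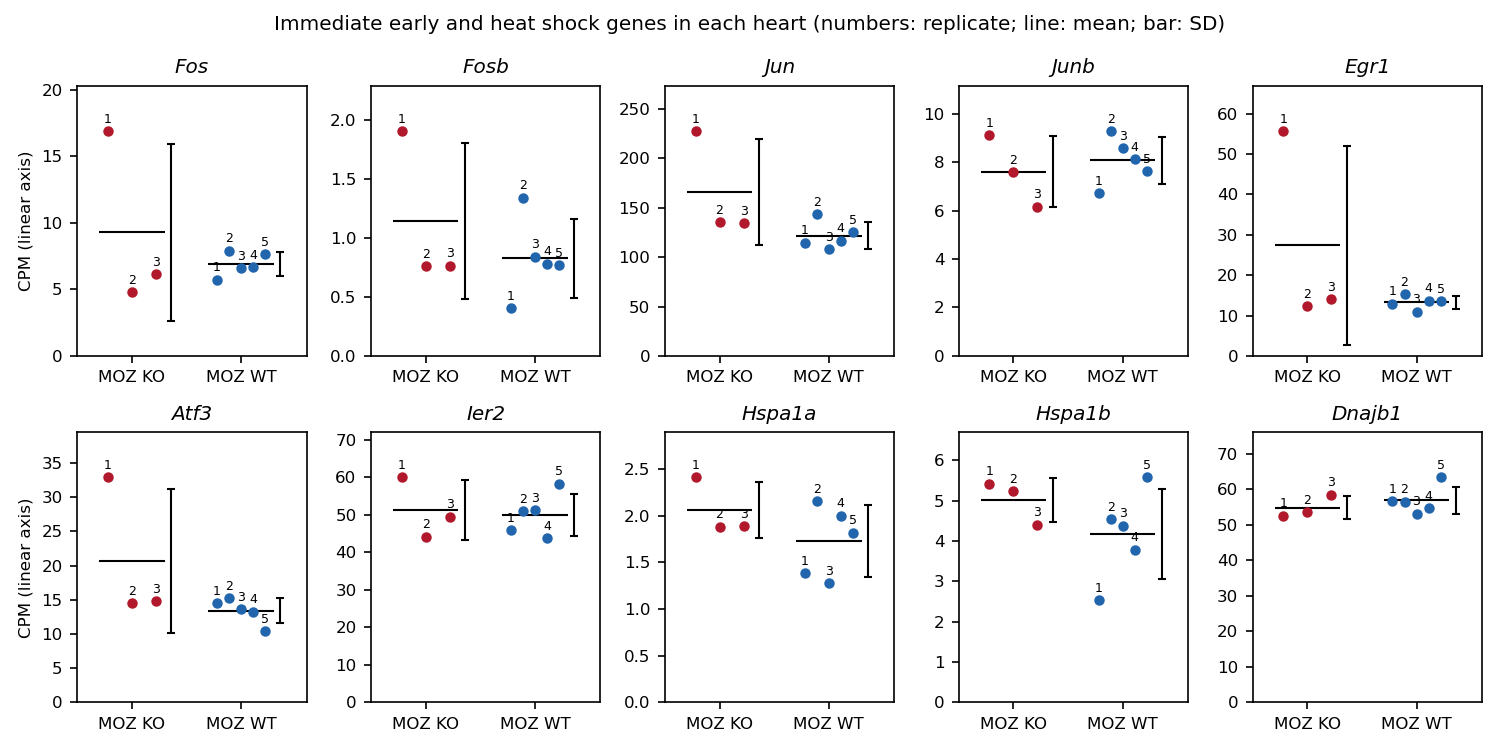
Level of each of the 10 genes in CPM (linear axis from 0) in 3 MOZ KO hearts (red) and 5 MOZ WT hearts (blue), with the replicate number above each point, the group mean as a line and the SD as a bar. MOZ KO replicate 1 stands alone for Egr1 at 55.7 CPM and for Fos at 16.9 CPM, and MOZ WT replicate 2 is next at 15.3 CPM for Egr1 and 7.90 CPM for Fos.

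Egr1, a zinc finger transcription factor and a direct target of serum response factor, showed the largest departure. Egr1 (Entrez gene 13653, chromosome 18, 34861207 to 34864956, mm10) had 55.7, 12.4 and 14.0 CPM in MOZ KO replicates 1 to 3, against 12.9, 15.3, 10.99, 13.7 and 13.5 CPM in MOZ WT replicates 1 to 5. Only MOZ KO replicate 1 was outside a narrow band, and the other 7 hearts of both groups overlapped, the highest of them being 1.39 times the lowest. MOZ KO over MOZ WT, the log2 fold change was 1.07 ± 0.53 (SE), with a 95% interval of -0.21 to 2.35 and an adjusted p of 0.443 by edgeR's quasi-likelihood test. Without MOZ KO replicate 1 it was -0.01 ± 0.13 (95% interval -0.28 to 0.27, adjusted p = 0.994, edgeR quasi-likelihood test).

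The Fos genes, whose proteins bind DNA only as dimers with Jun proteins, were high in the same heart. Fos (Entrez gene 14281, chromosome 12, 85473890 to 85477274) had 16.9, 4.78 and 6.16 CPM in MOZ KO replicates 1 to 3, against 5.72, 7.90, 6.58, 6.66 and 7.64 CPM in MOZ WT replicates 1 to 5. The highest and the lowest of all 8 hearts were both MOZ KO, replicates 1 and 2. Fos had a log2 fold change of 0.46 ± 0.41 (SE), with a 95% interval of -0.53 to 1.46 and an adjusted p of 0.705 by edgeR's quasi-likelihood test. It was -0.33 ± 0.18 without MOZ KO replicate 1 (adjusted p = 0.538). Fosb (Entrez gene 14282, chromosome 7, 19302696 to 19310118) had 1.91, 0.762 and 0.765 CPM in MOZ KO replicates 1 to 3, against 0.406, 1.34, 0.841, 0.783 and 0.768 CPM in MOZ WT replicates 1 to 5. It was highest in MOZ KO replicate 1 and next in MOZ WT replicate 2, and lowest in MOZ WT replicate 1. Fosb rested on 12 to 57 counts a heart. Counting error alone gave a 95% exact Poisson interval of 1.45 to 2.47 CPM for MOZ KO replicate 1 and 0.210 to 0.709 CPM for MOZ WT replicate 1.

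The Jun genes encode the other partner of AP-1, and of these Jun was high in MOZ KO replicate 1 and Junb was not. Jun (Entrez gene 16476, chromosome 4, 95049036 to 95052222) had 228, 135 and 135 CPM in MOZ KO replicates 1 to 3, against 115, 143, 108, 117 and 125 CPM in MOZ WT replicates 1 to 5. In MOZ KO replicate 1 Jun was 1.59 times the next heart, MOZ WT replicate 2, and the other MOZ KO hearts lay inside the MOZ WT range. The log2 fold change of Jun was 0.45 ± 0.21 (SE), with a 95% interval of -0.05 to 0.95 and an adjusted p of 0.400 by edgeR's quasi-likelihood test. Without MOZ KO replicate 1 it was 0.15 ± 0.09 (adjusted p = 0.589, edgeR quasi-likelihood test). Junb (Entrez gene 16477, chromosome 8, 84976909 to 84978748), whose product is a weaker activator than Jun, had 9.10, 7.57 and 6.16 CPM in MOZ KO replicates 1 to 3, against 6.73, 9.29, 8.58, 8.14 and 7.64 CPM in MOZ WT replicates 1 to 5. No heart stood apart, the highest being 1.51 times the lowest, and the log2 fold change was -0.08 ± 0.15 (95% interval -0.38 to 0.23).

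Atf3 is a stress-induced factor of the ATF/CREB family that acts mostly as a repressor, and Ier2 encodes a small nuclear protein of the early response. Atf3 (Entrez gene 11910, chromosome 1, 191170296 to 191183333) had 32.9, 14.5 and 14.8 CPM in MOZ KO replicates 1 to 3, against 14.5, 15.3, 13.6, 13.3 and 10.4 CPM in MOZ WT replicates 1 to 5. Again MOZ KO replicate 1 alone was high, at 2.15 times the next heart, with the rest overlapping. Its log2 fold change was 0.64 ± 0.31 (SE), with a 95% interval of -0.10 to 1.38 and an adjusted p of 0.425 by edgeR's quasi-likelihood test, and 0.12 ± 0.13 without that heart (adjusted p = 0.833). Ier2 (Entrez gene 15936, chromosome 8, 84661331 to 84662852) had 60.0, 44.2 and 49.6 CPM in MOZ KO replicates 1 to 3, against 45.9, 51.0, 51.2, 43.9 and 58.4 CPM in MOZ WT replicates 1 to 5. The groups overlapped throughout, MOZ KO replicate 1 being 1.03 times MOZ WT replicate 5, and the log2 fold change was 0.04 ± 0.11 (95% interval -0.20 to 0.28).

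**Figure D2:**
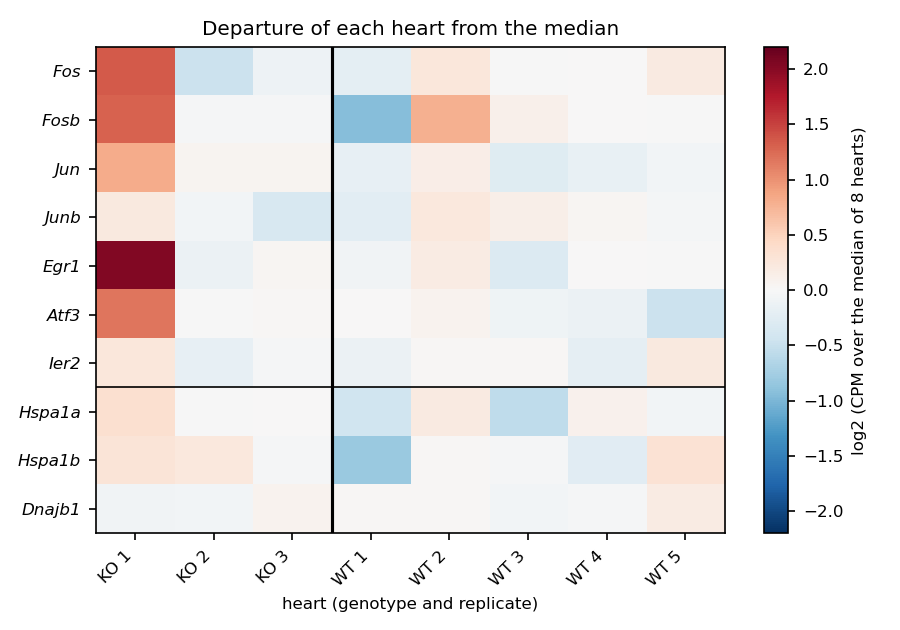
Level of each gene (rows) in each heart (columns, MOZ KO left of the thick line and MOZ WT right of it) as the log2 of its CPM over the median of the 8 hearts, red above and blue below. The 7 early response genes are above the thin line, where MOZ KO replicate 1 is the highest heart for 6 of them. Below it are the 3 heat shock genes, of which Hspa1a alone is highest in that heart.

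In MOZ KO replicate 1 the heat shock genes Hspa1a, Hspa1b and Dnajb1 stood at 1.28, 1.23 and 0.930 times the median of the other 7 hearts, where the 7 early response genes stood at 1.19 to 4.13 times. Hspa1a (Entrez gene 193740, chromosome 17, 34969359 to 34972156) had 2.41, 1.88 and 1.89 CPM in MOZ KO replicates 1 to 3, against 1.39, 2.15, 1.28, 2.00 and 1.82 CPM in MOZ WT replicates 1 to 5. Hspa1b (Entrez gene 15511, chromosome 17, 34956429 to 34959238) had 5.42, 5.24 and 4.41 CPM in MOZ KO replicates 1 to 3, against 2.54, 4.55, 4.38, 3.78 and 5.58 CPM in MOZ WT replicates 1 to 5. Groups overlapped for both, and the low values were in MOZ WT hearts, replicate 3 for Hspa1a and replicate 1 for Hspa1b. Both had a log2 fold change of 0.28, with SE 0.26 for Hspa1a (95% interval -0.26 to 0.82) and 0.20 for Hspa1b (95% interval -0.15 to 0.70). Added as 1 gene they had 0.27 ± 0.17 (adjusted p = 0.514, edgeR quasi-likelihood test). Without MOZ KO replicate 1 Hspa1a had 0.14 and Hspa1b 0.21. Hspa1a rested on 37 to 72 counts a heart and Hspa1b on 75 to 162.

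Dnajb1 encodes HSP40, the co-chaperone that delivers clients to HSP70, and was the steadiest of the 10 genes. Dnajb1 (Entrez gene 81489, chromosome 8, 83608175 to 83612653) had 52.6, 53.5 and 58.4 CPM in MOZ KO replicates 1 to 3, against 56.6, 56.5, 53.1, 54.7 and 63.3 CPM in MOZ WT replicates 1 to 5. The heart of highest Fos, Jun, Egr1 and Atf3, MOZ KO replicate 1, was here the lowest of all 8, and MOZ WT replicate 5 the highest. The log2 fold change of Dnajb1 was -0.05 ± 0.06 (SE), with a 95% interval of -0.18 to 0.08 and an adjusted p of 0.793 by edgeR's quasi-likelihood test. Summed, the 3 heat shock genes came to 60.4, 60.6 and 64.7 CPM in MOZ KO replicates 1 to 3, against 58.8 to 70.7 CPM in MOZ WT hearts. Most of this sum is Dnajb1 in every heart, and most of the early response sum that follows is Jun. Summed, the 7 early response genes came to 404, 219 and 226 CPM in MOZ KO replicates 1 to 3, against 199.7 to 244 CPM in MOZ WT hearts, and MOZ KO replicates 2 and 3 lie within that MOZ WT range.

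**Figure D3:**
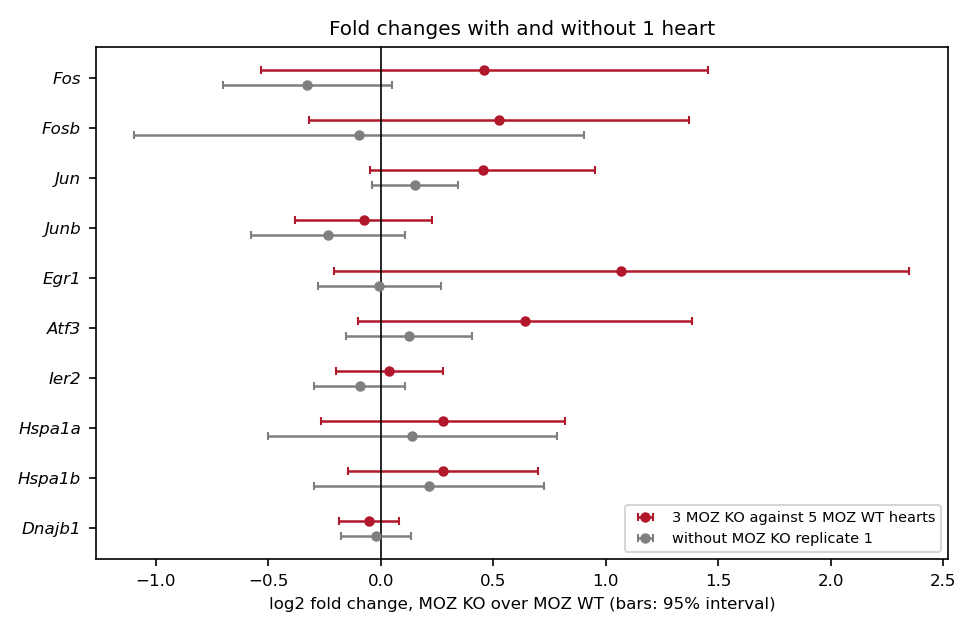
Log2 fold change of MOZ KO over MOZ WT for each gene with its 95% interval from edgeR's quasi-likelihood fit, for all 8 hearts (red) and without MOZ KO replicate 1 (grey). Every interval includes 0 in both fits, and the interval of Egr1 spans -0.21 to 2.35 with all hearts and -0.28 to 0.27 without that heart.

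The spread between hearts of a group was widest, relative to genes of like level, for Egr1, Jun, Fos and Atf3. The biological coefficient of variation of edgeR was 49.0% for Egr1, 38.6% for Fos, 28.9% for Atf3 and 19.6% for Jun, against a trend at their level of 10.1%, 13.4%, 10.53% and 6.13%. For these 4 genes it was more than 2 times the trend, which holds for 1.80% of all genes tested. Ier2 stood at 10.4% and Dnajb1 at 6.61%, against trends of 7.16% and 6.93%. Without MOZ KO replicate 1 the coefficient was 11.1% for Egr1, 13.7% for Fos, 11.4% for Atf3 and 8.23% for Jun.

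**Figure D4:**
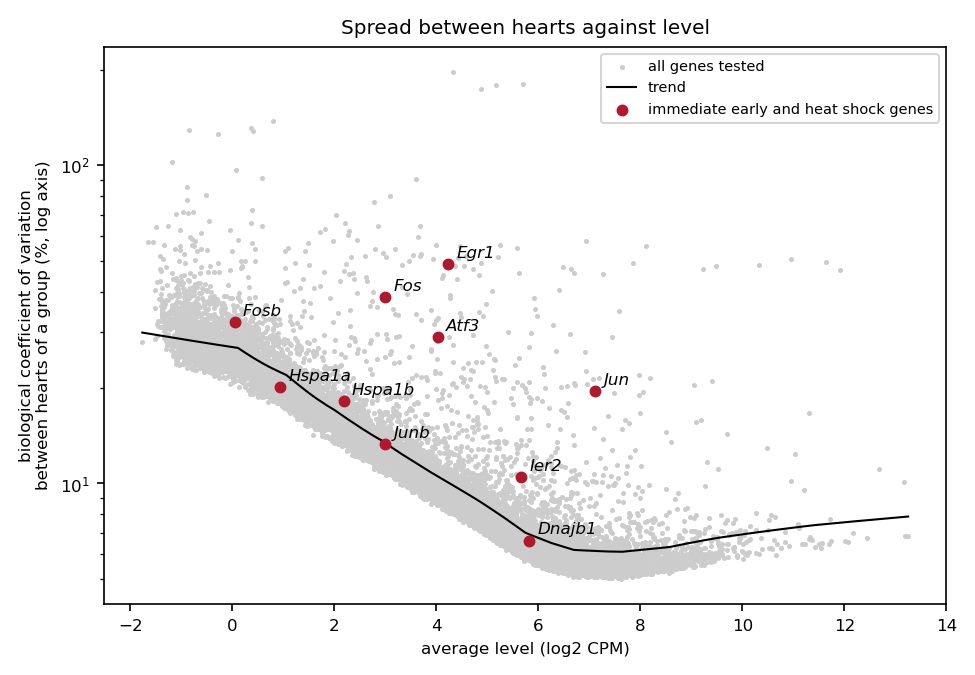
Biological coefficient of variation between hearts of a group (percent, log axis) against the average level in log2 CPM for all genes tested (grey), with the trend as a line and the 10 genes in red. Egr1, Fos, Atf3 and Jun lie above the trend, at 49.0%, 38.6%, 28.9% and 19.6%, while Dnajb1, Junb and Hspa1a lie at or under it.

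The other genes of MOZ KO replicate 1 were set beside these by counting those that stood at least 1.5 times above every other heart, among 13629 genes with a mean of at least 1 CPM. These limits and the heart were chosen after the values were seen, so no test is given. There were 26 such genes in MOZ KO replicate 1, while MOZ KO replicates 2 and 3 had 7 and 22, and the MOZ WT hearts had 2 to 67. Egr1 ranked first of the 26, at 3.63 times the next heart, Atf3 the third, Fos the fourth and Jun the fifteenth. The second and the fifth were Ccn2 (2.94 times) and Ccn1 (2.10 times), secreted matricellular proteins that are targets of serum response factor and YAP. Also among them were Gadd45g (1.52 times), a growth arrest gene, Nppb (1.54 times), which encodes the B-type natriuretic peptide, and Gem (1.604 times), a small GTPase.

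Other genes of the early response did not pass either. Of 37 such genes tested outside the 10, 0 passed in either direction by edgeR, DESeq2 or limma voom, where 2.67% of all genes passed by edgeR. Of the 37, 9 had an unadjusted p under 0.05 (edgeR), where 14.2% of all genes did. Their median log2 fold change was 0.08 with 27 of 37 above 0, and without MOZ KO replicate 1 it was 0.02 with 21 of 37 above 0. The smallest p belonged to Btg1, an antiproliferative gene, with 75.4 ± 1.53 CPM in MOZ KO and 65.7 ± 5.31 CPM in MOZ WT hearts (SD, n = 3 and n = 5; adjusted p = 0.102, edgeR quasi-likelihood test), and to Rhob, an early-induced GTPase, with 194 ± 15.2 CPM in MOZ KO and 172 ± 12.8 CPM in MOZ WT hearts (adjusted p = 0.162, edgeR quasi-likelihood test). In MOZ KO replicate 1, 18 of the 37 (48.6%) had their highest value, where 12.8% of all genes tested did. The median of the 37 was 1.094 times the median of the other hearts, where that of all genes tested was 1. Of the 37, 15 stood at least 1.2 times above the median of the other hearts, and the share of all genes that did was not counted. Among the 15 were Egr3 and Nr4a3, at only 0.803 and 0.937 CPM in that heart. Ccn2 had 257, 72.9 and 61.5 CPM in MOZ KO replicates 1 to 3, against 51.3 to 87.6 CPM in MOZ WT hearts, and Ccn1 had 134, 47.7 and 44.8 CPM in these MOZ KO hearts, against 40.6 to 64.1 CPM in MOZ WT hearts. These values were high in MOZ KO replicate 1 and overlapped in the rest. Zfp36, whose product degrades short-lived messenger RNA, had 24.0, 12.6 and 12.5 CPM in MOZ KO replicates 1 to 3, against 12.7 to 17.7 CPM in MOZ WT hearts. Nr4a1, a nuclear receptor of the early response, had 22.7, 15.4 and 14.8 CPM in the MOZ KO hearts, against 14.7 to 19.0 CPM in MOZ WT hearts. In the same heart Dusp1, a phosphatase of MAP kinases, was 1.23 times the median of the other hearts, Myc 0.999 times and Socs3 0.910 times. Fosl1, Egr2 and Egr4 were under the count filter.

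**Figure D5:**
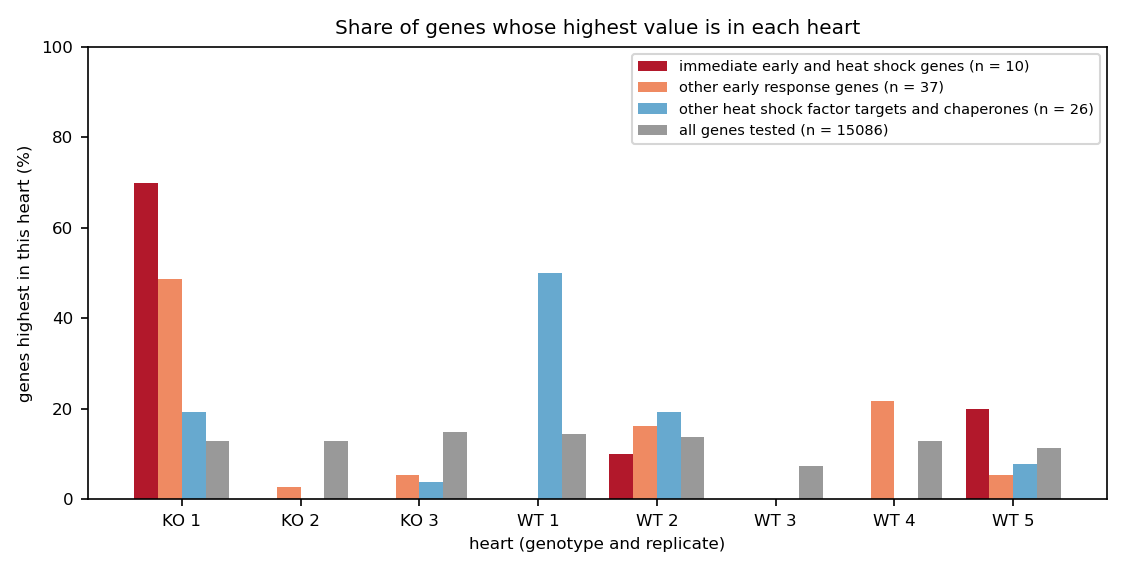
Percentage of genes whose highest CPM among the 8 hearts is in a given heart (MOZ KO hearts left, MOZ WT hearts right), for the 10 genes, 37 other early response genes, 26 other heat shock factor targets and chaperones, and 15086 genes tested. MOZ KO replicate 1 holds 70% of the 10 genes and 48.6% of the other early genes, against 12.8% of all genes tested. MOZ WT replicate 1 holds 50% of the chaperones, against 14.3% of all genes tested.

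Among chaperones and other targets of heat shock factor, MOZ KO replicate 1 had the highest value of 5 of 26 (19.2%), where it had that of 12.8% of all genes. Of the 26 tested outside the 10, 1 rose and 0 fell, where 1.44% of all genes rose and 1.23% fell. Their median log2 fold change was -0.06, with 20 of 26 below 0 and 6 above 0, where 49.9% of all genes were above 0. The gene that rose was Hspa1l (Entrez gene 15482, chromosome 17, 34972703 to 34979228), a constitutive HSP70 that neighbours Hspa1a and shares much of its coding sequence. Hspa1l stood at 9.74, 7.57 and 6.66 CPM in MOZ KO replicates 1 to 3, against 4.26 to 6.05 CPM in MOZ WT hearts. Its groups did not overlap, and its log2 fold change was 0.61 ± 0.16 (SE), with an adjusted p of 0.0480 by edgeR's quasi-likelihood test. The call of Hspa1l was lost without MOZ KO replicate 1 (0.43, adjusted p = 0.381, edgeR quasi-likelihood test), on leaving out any of 4 other hearts, and by limma voom (adjusted p = 0.0553). The heart with the lowest Hspa1b, MOZ WT replicate 1, had the highest value of 13 of the 26 (50%), where it had that of 14.3% of all genes. Among the 13 were Hsph1 at 181 CPM and Hsp90aa1 at 427 CPM. In that heart the 13 were at most 1.28 times the median of the other hearts.

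Among genes upstream of both programmes, 1 passed. Of 13 factors that act on early response promoters, 1 fell and 0 rose, where 1.23% of all genes fell and 1.44% rose. Serum response factor itself, Srf, fell to 206 ± 6.83 CPM in MOZ KO hearts, against 239 ± 4.79 CPM in MOZ WT hearts (SD, n = 3 and n = 5), a log2 fold change of -0.21 ± 0.04 (SE), with an adjusted p of 0.00708 by edgeR's quasi-likelihood test. Of the heat shock factors, Hsf1 had 45.3 ± 1.83 CPM in MOZ KO and 49.5 ± 2.74 CPM in MOZ WT hearts (log2 fold change -0.13 ± 0.06). Hsf2 had 41.4 ± 1.77 CPM in MOZ KO and 41.7 ± 2.50 CPM in MOZ WT hearts (-0.01 ± 0.07), and neither passed (adjusted p = 0.368 for Hsf1 and 0.976 for Hsf2, edgeR quasi-likelihood test).

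Lists of other stress responses were set beside these genes. Of 21 genes of the integrated and endoplasmic reticulum stress responses, to which Atf3 also belongs, and of 15 targets of p53, 0 passed by edgeR or limma voom. Over all genes tested 2.67% passed by edgeR. By DESeq2 1 of the 21 (Ddit4) and 0 of the 15 passed. At an unadjusted p under 0.05 (edgeR) there were 6 of the 21 and 2 of the 15, where 14.2% of all genes were. The median log2 fold change was 0.05 for the first list and 0.01 for the second. The 2 smallest adjusted p of the stress response list were those of Ddit4 (0.0655) and Atf6 (0.135), and the 2 smallest among p53 targets those of Phlda3 (0.202) and Cdkn1a (0.321), all by the edgeR quasi-likelihood test. Of 20 hypoxia-induced genes, 7 rose and 0 fell, where 1.44% of all genes rose and 1.23% fell. The 7 were Ndufa4l2, Bnip3, Pdk1, P4ha1, Vegfa, Egln3 and Egln1, and the median log2 fold change of the 20 was 0.24. The calls of P4ha1, Vegfa and Egln3 were lost without MOZ KO replicate 1 (adjusted p = 0.134, 0.113 and 0.202, edgeR quasi-likelihood test). Those of P4ha1 and Vegfa were also lost without MOZ KO replicate 2, and that of Egln3 without MOZ KO replicate 3, without any of MOZ WT replicates 3, 4 and 5, and by limma voom (adjusted p = 0.0517). The whole list summed to 4601 to 4782 CPM in MOZ KO and 3709 to 4589 CPM in MOZ WT hearts. At 4601 CPM, MOZ KO replicate 1 had the lowest of the MOZ KO sums. Over the list, the median fold over the median of the other 7 hearts was 1.104 in that heart. It was 1.145 and 1.143 in MOZ KO replicates 2 and 3. A link between these genes and the early response genes was not tested.

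Depth and other tissue were read in the same heart. In MOZ KO replicate 1 there were 30033097 counts, and MOZ WT replicates 1 and 3 had 29572508 and 34539787 counts with Egr1 at 12.9 and 10.99 CPM. Erythroid markers of MOZ KO replicate 1 summed to 5664 CPM, against 4059 to 16720 CPM in MOZ WT hearts. Neural markers summed to 114, 126 and 128.2 CPM in MOZ KO replicates 1 to 3, against 130.5 to 145 CPM in MOZ WT hearts. Mesenchyme markers summed to 1328, 1269 and 1269 CPM in MOZ KO replicates 1 to 3. In MOZ WT hearts they summed to 1055 to 1623 CPM, lowest in replicate 1 and highest in replicate 2. MOZ WT replicate 2 had the highest value of 6 of the 7, and MOZ KO replicate 1 that of 1. Endothelial and endocardial markers summed to 1239 to 1316 CPM in MOZ KO and 1210 to 1369 CPM in MOZ WT hearts. Epicardial markers summed to 287.7 to 333.9 CPM in MOZ KO and 409.6 to 478.1 CPM in MOZ WT hearts. Of the 8, 5 fell, where 1.23% of all genes did. Of 12 macrophage and leukocyte markers 6 rose, where 1.44% of all genes did. The 12 summed to 45.8 to 57.9 CPM in MOZ KO hearts, with replicate 1 the lowest of them, and to 16.4 to 32.4 CPM in MOZ WT hearts. No macrophage marker was at 0 in every heart, and of the neural list Foxd3 was. In MOZ KO replicates 2 and 3, whose macrophage sums were 50.1 and 57.9 CPM, Egr1 was at 12.4 and 14.0 CPM. What depth or these cell types add to the levels of the 10 genes was not tested.

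Across the 8 hearts, the genes outside the 10 whose log2 CPM was most like that of Fos were Lpar4 (Pearson's r = 0.980), Nrbp2 (0.943), Pcdhb7 (0.941), Rbm43 (0.940) and Zfp36 (0.938). Without MOZ KO replicate 1, over 7 hearts, r was 0.952, 0.728, 0.901, 0.912 and 0.806 for these genes in the same order. Lpar4 had 6.96 to 10.3 CPM in MOZ KO and 7.61 to 8.33 CPM in MOZ WT hearts. Those most like Hspa1b were Mtmr4 (0.977), Corin (0.942), Epc1 (0.939), Deaf1 (0.938) and Tnks1bp1 (0.934), and r without MOZ KO replicate 1 was 0.925 to 0.976. These are the highest among the genes tested over 8 points that share the same libraries, and are given as a description.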

How the data were processed

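Hearts were sequenced from TruSeq stranded libraries, per the labels' protocols. The submitters' processing notes name bcl2fastq, featureCounts and mm10, without versions. The sources used here do not give the aligner, annotation, strand setting or treatment of reads that fit several genes. The authors deposited unnormalized counts per Entrez gene ID, and the 8 files of single hearts hold the same counts as the table of all hearts. Symbols came from the RefSeq gene table of GRCm38.p6 for 25275 of 27179 IDs, and IDs without one held 1.05% of counts.

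Genes were filtered with filterByExpr, scaled by TMM and tested over all 8 hearts with no covariate by edgeR 4.0.16 (robust quasi-likelihood fit, R 4.3.3), with Benjamini-Hochberg adjustment over all genes tested and a threshold of 0.05. An SE is the size of the log2 fold change divided by the root of the F statistic. Likeness used log2 CPM with a prior count of 2. The 10 genes and the other lists were chosen with earlier results of these data known. Named from other stress lists were the genes past the threshold or, where none passed, the 2 of smallest p. Genes named for their level in 1 heart were chosen after their values were seen. No 2 libraries were alike within sampling noise over the 28 pairs (chi-square per degree of freedom 7.90 to 28.8). With no litter in the labels, a p measures only how these hearts varied. Poisson intervals cover counting error only. On simulated counts of 14946 genes the test recovered 42% of 1.25-fold, 76% of 1.5-fold, and 100% of 2-fold and 4-fold changes. Spread was simulated at the trend, and changes were placed only in genes with a mean of at least 2 CPM. Egr1, Fos, Atf3 and Jun have a spread of more than 2 times the trend. Fosb and Hspa1a have a mean under 2 CPM. These shares therefore do not apply to those genes. Alternatives were DESeq2 1.42.0, limma 3.58.1 (voom with quality weights), other scalings and filters, no robust moderation, the replicate number as a block, Xist or erythroid RNA as a covariate, and leaving out the hearts with Xist RNA or each heart in turn.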

Additional observations from a re-analysis of the deposited data

How the results depend on the processing

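None of the 10 genes passed under any alternative run in which it was tested. Fosb was removed by the filter of at least 1 CPM in 3 hearts and was not tested in that run. Leaving out each heart in turn, log2 fold changes ran from -0.33 to 0.76 for Fos, -0.10 to 0.75 for Fosb, 0.15 to 0.58 for Jun, -0.23 to 0.05 for Junb, -0.01 to 1.41 for Egr1, 0.12 to 0.83 for Atf3, -0.09 to 0.13 for Ier2, 0.14 to 0.37 for Hspa1a, 0.14 to 0.40 for Hspa1b and -0.10 to -0.01 for Dnajb1. The sign turned without MOZ KO replicate 1 for Fos (-0.33), Fosb (-0.10), Egr1 (-0.006) and Ier2 (-0.094), without MOZ KO replicate 3 for Junb (0.049), and without MOZ WT replicate 4 for Ier2 (-0.004). All genes past the threshold numbered 194 to 496 over these fits (194 without MOZ KO replicate 1, 263 without MOZ KO replicate 3), against 403 with all hearts. Among other early response genes 0 to 2 then rose and 0 to 1 fell, among chaperones 0 to 2 rose, and among hypoxia-induced genes 5 to 9 rose. Chaperones past the threshold were 0, and not 1, by limma voom, without robust moderation, with Xist RNA as a covariate and without the hearts with Xist RNA. Of the integrated and endoplasmic reticulum stress genes 1, and not 0, rose by DESeq2, with no filter on low counts and with erythroid expression as a covariate, and 0 to 1 when a heart was left out. Hypoxia-induced genes that rose were 4 with Xist RNA as a covariate and 11 with erythroid expression as a covariate. Same-numbered hearts did not deviate together (correlation of deviations 0.066, -0.119 and -0.054), but 3 such values cannot show what the number stands for. MOZ WT replicates 4 and 5 have no MOZ KO heart of their number, so the replicate block compares only replicates 1 to 3 of each group. With the block 181 genes passed, among them 0 chaperones, 0 upstream factors (Srf adjusted p = 0.0766, edgeR quasi-likelihood test) and 4 hypoxia-induced genes. Egr1 then had a log2 fold change of 0.77. Why calls moved was not tested. Depth limits Fosb most, at 12 to 57 counts a heart, and with 3 against 5 hearts and the spread of Egr1 and Fos, changes inside the intervals given above cannot be told from 0.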
